A study of Homo sapiens with 12 samples.

Results

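Nalm6 and RS4;11 are established cell lines of B-cell precursor acute lymphoblastic leukemia (BCP-ALL), and their RNA was compared on 6 Illumina BeadChip arrays, 3 for each line, of the 12 arrays in the series. RS4;11 carries the KMT2A-AFF1 fusion gene and is called the KMT2A-AFF1 line in what follows. Every array held RNA of cells that had been transduced with a pLKO.1-mCherry lentivirus and expanded, with 1 array per line for each of 3 vectors: a scrambled shRNA (Scrambled) and the shRNAs shCREB2 and shCREB3 against CREB1, the cyclic-AMP responsive transcription factor. No untransduced cells were on these arrays, and each line stands for 1 leukemia. With arrays matched by vector, the tests below set a difference between the lines against its variation over the 3 vectors. They say nothing on how other leukemias of the same kind vary. The question put to the data was which genes separate the lines when arrays are matched by vector. Of 31424 genes with a deposited value, 11953 were above background (detection p-value below 0.01) on 3 or more of these 6 arrays and were tested. Levels are log2 of the deposited normalized value, in the order Scrambled, shCREB2 and shCREB3, and differences are Nalm6 minus the KMT2A-AFF1 line, so a negative difference means a higher level in the KMT2A-AFF1 line.

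B-cell precursors rearrange their immunoglobulin genes with the RAG proteins and terminal transferase, and then test the new heavy chain in the pre-B-cell receptor, which pairs it with the surrogate light chains VPREB1 and IGLL1 and signals through CD79A and CD79B. Fusions of KMT2A, a histone methyltransferase, arise in an early precursor and are known for high levels of the HOXA genes and their cofactor MEIS1, of the receptor FLT3 and of the stem cell antigen PROM1, and for low CD10, the product of MME. Nalm6 is a pre-B line known for a rearrangement of DUX4, a transcription factor gene that lies in repeats.

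The promoters of the genes with the largest differences are printed here because the shRNAs were aimed at CREB1, which binds the cyclic-AMP response element (CRE). They are the 3 largest differences of named genes in each direction with an entry in the RefSeq table of GRCh38.p14, and HOXA9. KCNK12 and LGALS1 had no entry. Each runs 5′ to 3′ on the gene's strand, from 250 bases before the start to 50 after it, and capitals mark the CRE half-site TGACG or its reverse complement CGTCA.
TCL1A (chr14:95714076-95714375, minus strand): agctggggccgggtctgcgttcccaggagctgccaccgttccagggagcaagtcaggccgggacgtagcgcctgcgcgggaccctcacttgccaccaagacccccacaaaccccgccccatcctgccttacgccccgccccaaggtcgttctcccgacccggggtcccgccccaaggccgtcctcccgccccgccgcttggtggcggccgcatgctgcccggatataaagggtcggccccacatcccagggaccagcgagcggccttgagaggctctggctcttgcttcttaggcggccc
DNTT (chr10:96304184-96304483, plus strand): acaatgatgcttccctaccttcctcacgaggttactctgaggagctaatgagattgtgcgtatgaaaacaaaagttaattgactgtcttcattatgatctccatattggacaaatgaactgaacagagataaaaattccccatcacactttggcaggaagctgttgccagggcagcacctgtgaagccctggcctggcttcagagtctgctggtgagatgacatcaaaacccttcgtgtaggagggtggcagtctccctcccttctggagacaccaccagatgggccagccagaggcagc
D4S234E, now NSG1 (chr4:4386852-4387151, plus strand): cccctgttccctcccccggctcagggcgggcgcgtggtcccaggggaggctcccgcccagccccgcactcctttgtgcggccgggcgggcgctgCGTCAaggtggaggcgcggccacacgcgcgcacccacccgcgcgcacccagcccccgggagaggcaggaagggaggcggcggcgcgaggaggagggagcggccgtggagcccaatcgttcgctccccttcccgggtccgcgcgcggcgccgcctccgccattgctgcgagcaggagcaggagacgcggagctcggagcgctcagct
CRIP1 (chr14:105486636-105486935, plus strand): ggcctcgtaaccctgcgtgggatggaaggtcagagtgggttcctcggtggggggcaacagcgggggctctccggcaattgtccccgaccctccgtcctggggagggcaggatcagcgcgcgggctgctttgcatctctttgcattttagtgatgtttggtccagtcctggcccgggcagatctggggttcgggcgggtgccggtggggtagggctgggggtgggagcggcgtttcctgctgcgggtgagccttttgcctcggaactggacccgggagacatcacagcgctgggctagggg
PROM1 (chr4:16083974-16084273, minus strand): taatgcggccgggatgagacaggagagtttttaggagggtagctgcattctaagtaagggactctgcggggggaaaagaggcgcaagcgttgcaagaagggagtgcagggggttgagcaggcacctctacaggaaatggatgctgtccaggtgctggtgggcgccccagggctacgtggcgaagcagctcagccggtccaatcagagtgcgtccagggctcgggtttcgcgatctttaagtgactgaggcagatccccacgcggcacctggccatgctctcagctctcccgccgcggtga
GTSF1 (chr12:54473553-54473852, minus strand): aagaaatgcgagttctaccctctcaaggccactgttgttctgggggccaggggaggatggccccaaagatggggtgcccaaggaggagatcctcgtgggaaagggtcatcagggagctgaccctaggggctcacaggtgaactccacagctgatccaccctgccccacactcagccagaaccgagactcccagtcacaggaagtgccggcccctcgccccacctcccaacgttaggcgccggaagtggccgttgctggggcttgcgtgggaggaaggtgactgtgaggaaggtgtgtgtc
HOXA9 (chr7:27165488-27165787, minus strand): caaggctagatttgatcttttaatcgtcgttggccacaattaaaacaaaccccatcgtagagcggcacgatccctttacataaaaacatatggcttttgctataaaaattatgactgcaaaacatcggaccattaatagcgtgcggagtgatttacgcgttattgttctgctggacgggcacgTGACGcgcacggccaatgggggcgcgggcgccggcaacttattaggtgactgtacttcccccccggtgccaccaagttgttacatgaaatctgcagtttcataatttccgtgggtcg
A half-site lay in the windows of NSG1 and HOXA9, at positions -156 and -67 from the start, and these letters were in none of the other 5 windows. Of all 27305 promoters, 24.3% held a half-site on either strand, and over the 8103 genes tested that have an entry 34.1% did. The share was 35.4% among genes higher in Nalm6 and 28.6% among genes higher in the KMT2A-AFF1 line. For called differences of at least 1 on the log2 scale it was 28.9% and 23.4%, of 228 and 282 genes with an entry. Both lay below the 34.1% of genes tested.

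The libraries carried their labels' lineage. Of 7 B-lineage markers, 6 were detected on all 6 arrays, and PAX5, read by 1 probe, was not well above background on any. HOXA9, HOXA10 and MEIS1 were detected on all 3 arrays of the KMT2A-AFF1 line, and HOXA9 and HOXA10 on none of Nalm6. CD3E and MPO, defining genes of T cells and myeloid cells, were on no array. Of 9 T-lineage markers 5 were on no Nalm6 array and 5 on no array of the KMT2A-AFF1 line, and of 9 myeloid markers 7 and 8. LCK was detected on all 6 arrays, CD3D on 3 of the KMT2A-AFF1 line, LYZ and CD14 on 3 of Nalm6, and GATA3 and BCL11B on 2 of Nalm6. CREB1, the target of the shRNAs, read 10.00, 10.23 and 10.18 in Nalm6 and 10.13, 9.91 and 10.38 in the KMT2A-AFF1 line, so its mRNA was not lower on 3 of the 4 arrays labelled with a CREB shRNA, and the vector names are used only as labels. The authors report reduced CREB protein in both lines by Western blot, which arrays of mRNA do not measure. Between the lines CREB1 did not pass the test (adjusted p = 0.98). The 3 arrays of the KMT2A-AFF1 line correlated at 0.996 to 0.998 over the genes tested and those of Nalm6 at 0.968 to 0.987, against 0.914 to 0.933 between lines. The Nalm6 array labelled shCREB2 stood apart from the other 2 of its line, and counts below are also given without the shCREB2 arrays.

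About 1 gene in 3 differed. In all, 4011 genes (33.6% of those tested) passed an adjusted p of 0.05, 2026 (16.9%) higher in Nalm6 and 1985 (16.6%) higher in the KMT2A-AFF1 line, and each had the same sign with all 3 vectors. Differences of at least 1 on the log2 scale were called for 694 genes (5.81%), 300 higher in Nalm6 (2.51%) and 394 higher in the KMT2A-AFF1 line (3.3%). The levels of 5928 genes (49.6%) did not overlap between the lines. The median size of a difference was 0.20 and the median standard error 0.08. Without the shCREB2 arrays the counts were 2371 and 2214, without the Scrambled arrays 712 and 835, and without the shCREB3 arrays 707 and 895. With the brightest probe of each gene in place of the mean of its probes (11797 genes), quantile normalization gave 2143 and 2021 and median scaling 1477 and 3027, so that 51.5% and 32.8% of calls were higher in Nalm6, against 50.5% in the main test. Calls of at least 1 numbered 812 for the brightest probe, 864 with median scaling and 1984 with normexp background correction. The same model called 5451 of 11884 genes (45.9%) between the T-ALL lines Jurkat and Molt4, of which 161 (1.35%) reached 1 on the log2 scale.

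**Figure D1:**
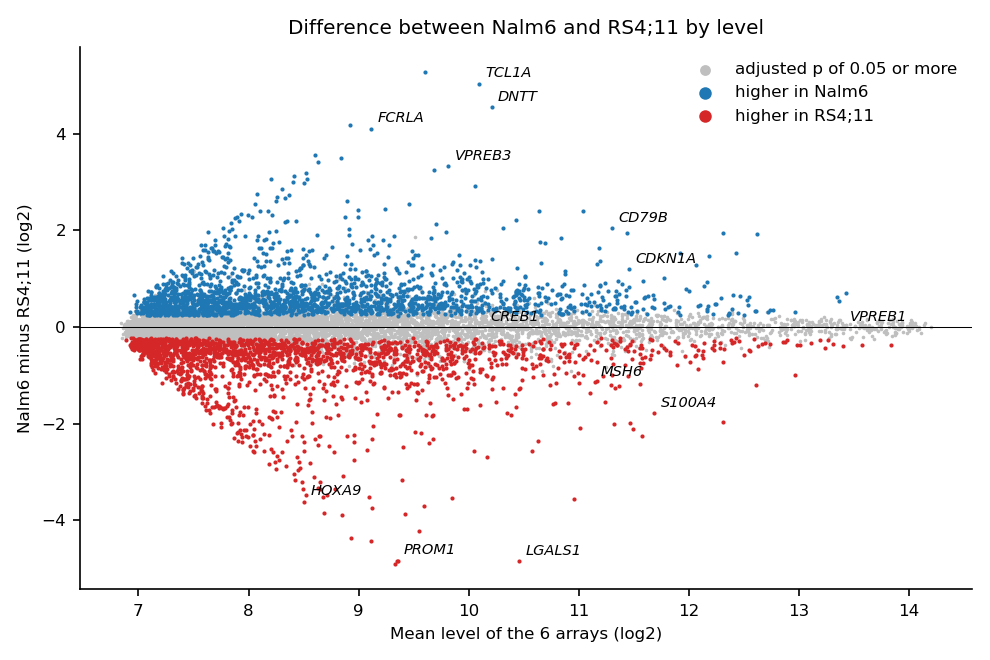
Difference between the lines (Nalm6 minus RS4;11, log2) against the mean level on the 6 arrays (log2) for 11940 of the genes tested. Blue genes were called higher in Nalm6 and red genes higher in RS4;11, and the sloping edges on the left are genes near background in 1 line, among them HOXA9, FCRLA and PROM1.

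For 343 of the genes tested, all 3 Nalm6 arrays and no array of the KMT2A-AFF1 line were above background, and 545 genes had the opposite pattern. Of these, 255 and 416 were called in the matching direction. They passed the filter through 1 line alone and had to differ in detection, so their number is a description. In bulk RNA, fewer expressing cells and less RNA per cell cannot be told apart. For such a gene the dim line gives only a bound, and its fold is written as "at least", from the mean of the bright line over the higher of the dim probe's own value and the lowest detected signal on each array.

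Most tested genes of the list known from KMT2A-rearranged leukemia were higher in the KMT2A-AFF1 line. Of 29 genes, 23 were tested, 20 were called higher in the KMT2A-AFF1 line and none higher in Nalm6, against 16.6% of all genes tested, and the median difference was -1.79 against 0.01 over all genes. The same count of 20 was called without the shCREB2 arrays. Of these 23 genes, 11 had passed the filter through the KMT2A-AFF1 line alone, so the count and the median describe the list and support nothing. Of the 11 genes detected on all 6 arrays 8 were called higher in the KMT2A-AFF1 line, with a median of -0.65. RNF220, JMJD1C and SOCS2 did not pass the test, with differences of 0.20, -0.30 and -0.56.

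Among the homeobox genes HOXA9, the gene most tied to the fusion, read 6.64, 6.71 and 6.75 in Nalm6 and 10.32, 10.26 and 10.36 in the KMT2A-AFF1 line. It was at background on every Nalm6 array and at least 9.36-fold higher in the KMT2A-AFF1 line (log2 difference -3.61, SE 0.07, adjusted p = 1.01e-04). The brightest HOXA9 probe gave -4.50. HOXA5, HOXA6 and HOXA10 were also called and at background on every Nalm6 array, at least 7.99-fold, 1.79-fold and 2.18-fold higher in the KMT2A-AFF1 line, and the brightest of the 3 HOXA10 probes gave a log2 difference of -2.47 against -1.41 for their mean. HOXA3, HOXA4 and HOXA7 were above background on too few arrays to be tested. MEIS1, which binds DNA with HOXA9, read 7.10, 7.13 and 7.14 in Nalm6 and 9.19, 8.96 and 9.05 in the KMT2A-AFF1 line, a log2 difference of -1.94 with no overlap, and was detected on 2 of 3 Nalm6 arrays. PBX3, another partner of the HOX proteins, differed by -0.65.

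Among the other members of the list, PROM1, the CD133 antigen of stem and progenitor cells, read 6.89, 7.02 and 6.90 in Nalm6 and 11.91, 11.43 and 11.98 in the KMT2A-AFF1 line, at least 25.7-fold higher (log2 difference -4.83, SE 0.15). FLT3, a receptor tyrosine kinase of early progenitors, read 6.83, 6.80 and 6.85 against 10.19, 10.06 and 10.27, at least 8.48-fold higher. Both genes were at background in Jurkat and Molt4 too, so that in this series they were seen in 1 line of 4. CSPG4, the NG2 antigen used to recognise KMT2A-rearranged blasts, was at least 3.16-fold higher in the KMT2A-AFF1 line, and CD44, the hyaluronan receptor, at least 3.97-fold, with -3.59 for its brightest probe against -2.28 for the mean of its probes. LGALS1, a secreted galectin, was detected in both lines and read 7.99, 8.12 and 8.003 in Nalm6 against 12.90, 12.83 and 12.93, a 28.8-fold difference. C20orf103, now LAMP5, a lysosome-associated membrane protein, read 6.78, 6.75 and 6.74 against 10.61, 10.62 and 10.61, and was at background in the other 3 lines. MEF2C, a transcription factor of early lymphoid cells, and BCL2, which blocks apoptosis, differed by -1.97 and -1.99. KMT2A itself (MLL in the files) and AFF1, the partners in the fusion, did not pass the test, with differences of -0.10 and 0.16.

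**Figure D2:**
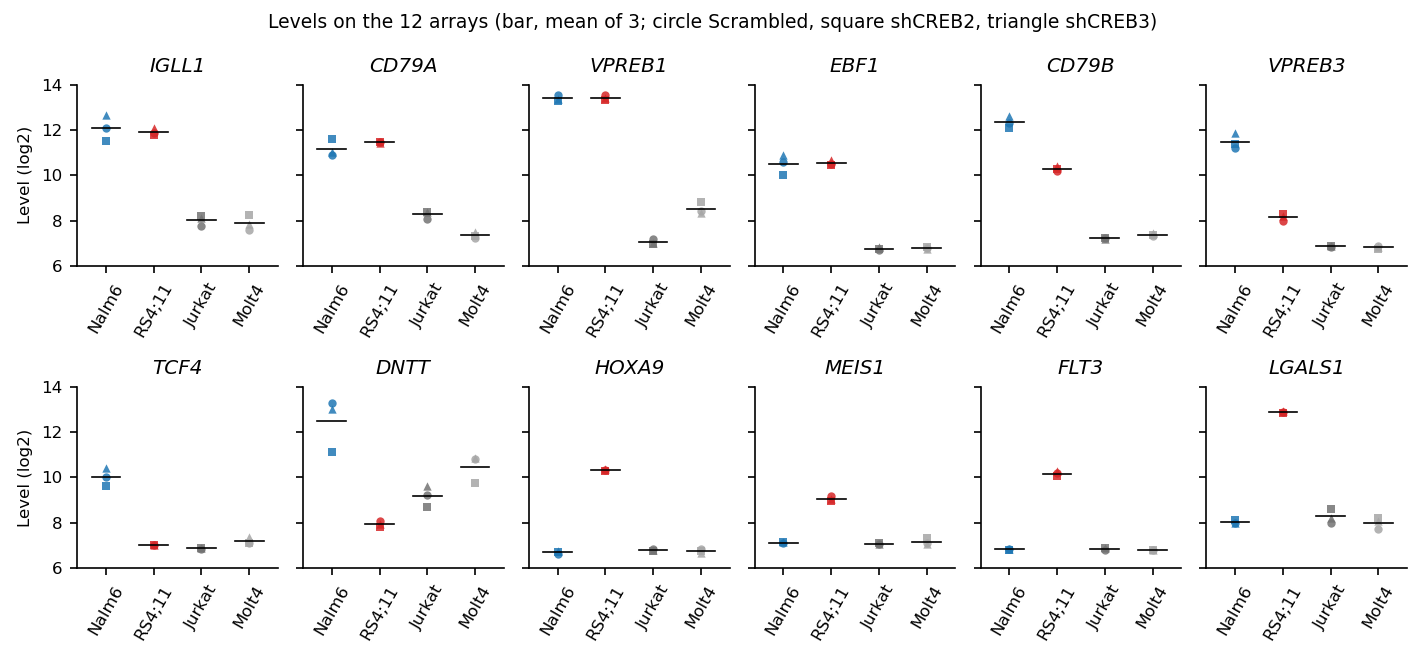
Level (log2) of 12 genes on the 12 arrays of the 4 cell lines, each symbol 1 array and each bar the mean of 3. IGLL1, CD79A, VPREB1 and EBF1 overlapped between Nalm6 and RS4;11, CD79B, VPREB3, TCF4 and DNTT were higher in Nalm6, and HOXA9, MEIS1, FLT3 and LGALS1 were higher in RS4;11 than in the other 3 lines.

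The pre-B-cell receptor list was mixed. Of 26 genes tested, 10 were called higher in Nalm6 and 4 higher in the KMT2A-AFF1 line (53.8% called against 33.6% of all genes), with a median of 0.21, and the counts were 11 and 5 without the shCREB2 arrays and, of 24 genes with the brightest probe, 9 and 4 with quantile normalization and 8 and 7 with median scaling. The surrogate light chains did not pass the test. VPREB1, 1 of the brightest genes on the arrays, read 13.54, 13.29 and 13.38 in Nalm6 and 13.53, 13.31 and 13.39 in the KMT2A-AFF1 line, a difference of -0.01 (SE 0.06, 95% interval -0.17 to 0.16). The difference was 0.16 for IGLL1 and -0.28 for CD79A, and the arrays of the lines overlapped for both. CD79A passed the test at -0.48 and IGLL1 at 0.38 once the shCREB2 arrays were left out.

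By contrast VPREB3, an endoplasmic reticulum protein that associates with newly made immunoglobulin chains, read 11.21, 11.37 and 11.85 in Nalm6 and 7.97, 8.28 and 8.21 in the KMT2A-AFF1 line, 9.98-fold higher (log2 difference 3.32, SE 0.12, adjusted p = 2.78e-04). FCRLA, an Fc receptor-like protein inside B cells, read 10.98, 10.67 and 11.85 against 7.08, 7.02 and 7.09, a log2 difference of 4.10, and was detected on 2 of 3 arrays of the KMT2A-AFF1 line. CD79B, the signalling chain of the receptor, was 4.12-fold higher in Nalm6, although its partner CD79A was not called. The kinase SYK and the phospholipase PLCG2, which relay the receptor's signal, differed by 1.25 and 1.41, and DOCK2, an activator of RAC in leukocytes, by 1.48. CD72 and CD22, which dampen B-cell receptor signals, ran the other way, with differences of -1.26 and -0.65, as did FYN, a SRC family kinase, at background in Nalm6 and at least 1.63-fold higher in the KMT2A-AFF1 line, with -1.52 for its brightest probe against -0.94.

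In the V(D)J recombination list, 2 of 7 genes tested were called, both higher in Nalm6 (28.6% called against 33.6% of all genes). DNTT, the terminal transferase that adds nucleotides at V(D)J joints, read 13.30, 11.11 and 13.03 in Nalm6 and 8.06, 7.80 and 7.95 in the KMT2A-AFF1 line, 23.3-fold higher (log2 difference 4.54, SE 0.40, adjusted p = 0.0024). The lines did not overlap, and the Nalm6 array labelled shCREB2 was the lowest of its line. DNTT was detected in Jurkat and Molt4 as well, at means of 9.18 and 10.48. LIG4, the ligase of the joining step, was at least 1.14-fold higher in Nalm6. Without the shCREB2 arrays 3 of the 7 were called higher in Nalm6, and for the brightest probe 2 were with quantile normalization and 1 in each direction with median scaling. RAG1 read 9.31, 7.94 and 8.81 against 8.26, 8.04 and 8.40 and overlapped between lines, and without the shCREB2 arrays it was called at 0.73. RAG2 was at background in both.

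Transcription factors of the B lineage split in both directions, with 10 of 27 called higher in Nalm6 and 7 higher in the KMT2A-AFF1 line (median 0.07), against 16.9% and 16.6% of all genes. These were 12 and 8 without the shCREB2 arrays. EBF1, which sets the B-lineage programme, differed by -0.04 (SE 0.14). TCF4, an E-protein, read 10.00, 9.60 and 10.40 in Nalm6 and 7.01, 7.0045 and 7.04 in the KMT2A-AFF1 line, where it was at background, at least 7.62-fold higher in Nalm6. TCF12, another E-protein, went the other way at -1.46, and ID2, which inhibits E-proteins, at -1.47. BACH2, a repressor of plasma cell genes, and IRF4, induced by pre-B-cell receptor signals, differed by 1.88 and 1.40. BCL6, which protects pre-B cells from DNA damage responses, read 6.94, 7.11 and 7.07 in Nalm6 and 8.94, 8.81 and 8.85 in the KMT2A-AFF1 line, and IRF8 differed by -1.19.

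Genes known from DUX4-rearranged leukemia were few on the arrays above background, with 6 of 11 tested. Of these, 5 were called higher in Nalm6 and none higher in the KMT2A-AFF1 line (median 0.77), against 16.9% and 16.6% of all genes. Of the 6, only 1, CCNJ, was detected on all 6 arrays, and 2 passed the filter through Nalm6 alone. The count and the median therefore describe the list and support nothing. The count was 5 without the shCREB2 arrays. CENTG2, now AGAP1, a GTPase-activating protein, read 9.81, 11.13 and 10.24 in Nalm6 and 6.87, 6.74 and 6.86 in the KMT2A-AFF1 line, at least 9.98-fold higher.  STAP1, an adaptor of B-cell kinases, read 9.74, 11.54 and 10.50 against 7.03, 7.10 and 7.16, a log2 difference of 3.50, and was detected on 2 of 3 arrays of the KMT2A-AFF1 line. In both genes the Nalm6 array labelled shCREB2 was the highest, and no array of the other line came near. DUX4 itself was called at 0.28, and as a repeated gene its probes cannot tell its copies apart. ERG, PTPRM, CLEC12A and CLEC12B were at background in both lines.

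Of the leukemia surface antigens 22 of 32 tested were called, against 33.6% of all genes, 9 higher in Nalm6 and 13 higher in the KMT2A-AFF1 line, and 12 and 13 without the shCREB2 arrays. MME, whose product is CD10, read 9.501, 7.9995 and 9.501 in Nalm6 and 6.78, 6.76 and 6.70 in the KMT2A-AFF1 line, where none of its 4 probes was above background, at least 3.81-fold higher. Its deposited value averages dim and bright probes, and the brightest probe gave a log2 difference of 3.89 in place of 2.25. CD24 and CD38, antigens of B-cell precursors, were 3.56-fold and at least 2.65-fold higher in Nalm6, and CXCR4, the homing receptor of the marrow niche, differed by 1.49. FUT4, which makes the CD15 antigen, read 7.21, 7.24 and 7.51 in Nalm6 against 10.58, 10.14 and 10.48, 8.46-fold higher in the KMT2A-AFF1 line. CD70 and CD48, ligands on B cells, and CD99 differed by -2.46, -2.31 and -1.70. CD34 was at background in both lines.

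Antigen presentation genes of class II were higher in Nalm6 as a group, with 14 of 17 called higher there and none higher in the KMT2A-AFF1 line, against 16.9% of all genes tested, and a median of 0.51. The count was 14 without the shCREB2 arrays and, of 16 genes with the brightest probe, 14 with quantile normalization and 13 with median scaling. HLA-DMB, a chain of the complex that loads peptides, read 10.45, 10.69 and 11.04 in Nalm6 and 8.12, 8.12 and 8.35 in the KMT2A-AFF1 line, 5.79-fold higher (log2 difference 2.53, SE 0.09, adjusted p = 2.75e-04). Its partner HLA-DMA was 3.36-fold higher, and HLA-DRA, HLA-DPA1 and the invariant chain CD74 differed by 1.47, 1.31 and 0.84. CIITA, the master regulator of these genes, differed by 0.39. HLA-DRB4 differed by 1.89, but the DRB genes are near-identical and not every haplotype carries this one. In class I and peptide loading, 4 of 19 genes were called, all higher in Nalm6 (21.1% against 16.9% of all genes higher there), with TAP1 at 0.62, while B2M, the light chain, did not pass at -0.17.

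**Figure D3:**
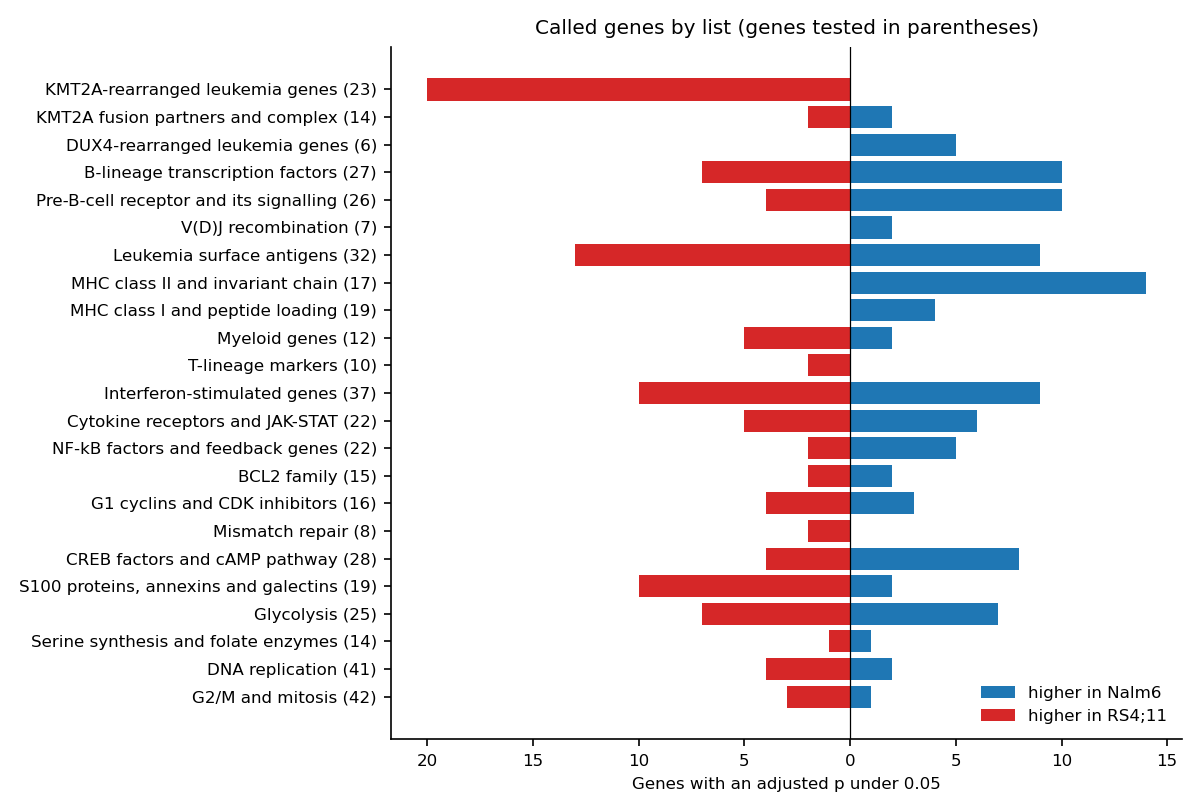
Number of genes called at an adjusted p of 0.05 in 23 gene lists, drawn to the right for genes higher in Nalm6 and to the left for genes higher in RS4;11, with the number tested in parentheses. The KMT2A list runs to 20 on the left with none on the right, and MHC class II to 14 on the right with none on the left.

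The 30 largest differences of genes with a name, 15 in each direction, did not overlap between the lines in any case, as 49.6% of all genes tested did not. Those higher in Nalm6 lay between 2.98 and 5.03, with adjusted p-values of 0.00019 to 0.0028, and those higher in the KMT2A-AFF1 line between 3.55 and 4.92 in size, with 0.0001 to 0.00075. TCL1A, a coactivator of the AKT kinase in B cells, read 12.61, 12.30 and 12.94 in Nalm6 and 7.51, 7.78 and 7.46 in the KMT2A-AFF1 line, 32.7-fold higher and the largest named difference of the deposited values. That rank depends on the processing, since genes at background in 1 line have only a bound there. With normexp background correction TCL1A differed by 6.10 and KCNK12 by -7.22. D4S234E (NSG1), an endosomal protein known from neurons, was at least 15.3-fold higher in Nalm6. ALOX5, the lipoxygenase that starts leukotriene synthesis, read 10.47, 9.67 and 10.20 against 6.98, 6.92 and 6.91. Its brightest probe gave a log2 difference of 4.71 against 3.17 for the mean of its probes, and 6.97 with normexp background correction. GPER, now GPER1, a membrane estrogen receptor, was detected on 1 of 3 arrays of the KMT2A-AFF1 line and differed by 3.42, and by 4.08 for its brightest probe. SEC11C, a signal peptidase subunit, was at least 7.14-fold higher in Nalm6. MT1H, a metallothionein, was 9.45-fold higher, but metallothionein genes are near-identical and the probes may share signal. PXDN, a peroxidase of the extracellular matrix, was at least 7.94-fold higher, LRRC26, a potassium channel subunit, at least 7.49-fold, and TCERG1L at least 6.33-fold.

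On the side of the KMT2A-AFF1 line, KCNK12, a potassium channel, read 6.90, 6.91 and 6.82 in Nalm6 and 11.77, 11.62 and 11.99, at least 26-fold higher (log2 difference -4.92, SE 0.11, adjusted p = 1.19e-04). CRIP1, a LIM domain protein, read 6.93, 6.86 and 6.996 against 11.68, 11.89 and 11.76, at least 25.8-fold higher. Unlike PROM1, CRIP1 was also high in the T-ALL lines, at means of 11.18 in Jurkat and 9.86 in Molt4, so that Nalm6 was the line without it. GTSF1, known from transposon silencing in germ cells, was at least 18.9-fold higher in the KMT2A-AFF1 line, and TMSB15A, a thymosin that binds actin, at least 16.3-fold. TMSB15A was also high in Jurkat and Molt4, at means of 10.28 and 11.47. MGST2, a glutathione transferase of leukotriene synthesis, read 7.02, 6.82 and 6.89 against 10.74, 10.88 and 10.76, while ALOX5, of the same pathway, had run the other way. DFNA5, now GSDME, a gasdermin that forms pores in dying cells, was 14.7-fold higher, VAMP8, a vesicle fusion protein, 13.1-fold, ACAD11, an acyl-CoA dehydrogenase, 11.8-fold and LRRC28 11.7-fold.

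**Figure D4:**
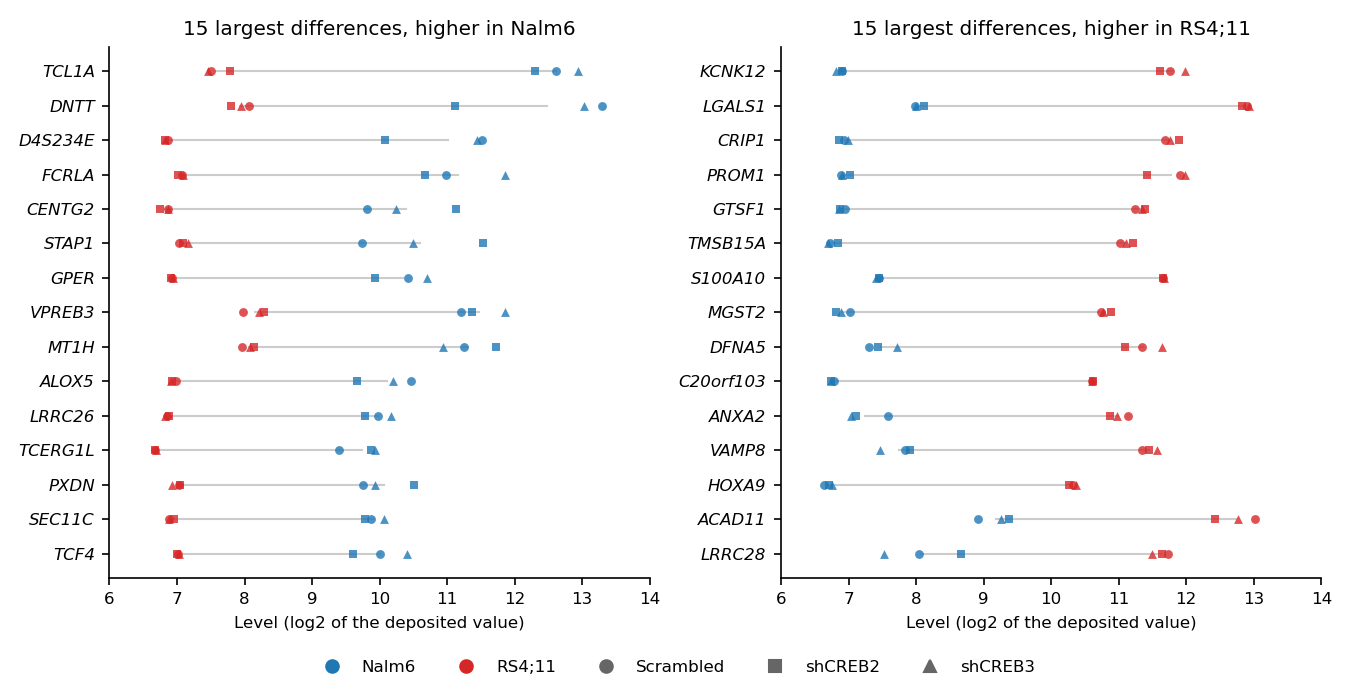
Level (log2) of the 15 genes with the largest called difference in each direction, each symbol 1 array (circle Scrambled, square shCREB2, triangle shCREB3), blue for Nalm6 and red for RS4;11, with a grey line between the means. No gene overlaps, and the Nalm6 squares lie apart from the other Nalm6 symbols for DNTT, D4S234E, CENTG2 and STAP1.

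In a list of S100 proteins, annexins and galectins that also holds VIM, AHNAK, TAGLN2 and CAPG, 10 of 19 genes tested were called higher in the KMT2A-AFF1 line, CAPG among them, and 2 higher in Nalm6 (median -0.43), against 16.6% and 16.9% of all genes. The counts were the same without the shCREB2 arrays. S100A10 and ANXA2, which form 1 complex at the membrane, moved together. S100A10 read 7.46, 7.45 and 7.40 in Nalm6 and 11.65, 11.66 and 11.67 in the KMT2A-AFF1 line, 18.7-fold higher, and ANXA2 read 7.58, 7.12 and 7.04 against 11.14, 10.88 and 10.97, 13.5-fold higher. The brightest probes gave log2 differences of -4.81 for S100A10 and -4.59 for ANXA2, against -4.22 and -3.75 for the means of their probes. In Jurkat and Molt4 the mean levels were 10.14 and 10.32 for S100A10 and 8.14 and 7.90 for ANXA2. S100A4 differed by -1.79, and S100A11, at background in Nalm6, was at least 2.36-fold higher in the KMT2A-AFF1 line. S100A16, at least 1.62-fold, and S100A13, at 0.54, were called higher in Nalm6.

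Genes of other lineages were mostly at background. In the myeloid list 12 of 30 genes were tested, with 2 called higher in Nalm6 and 5 higher in the KMT2A-AFF1 line (58.3% called against 33.6% of all genes). CSF1R, the macrophage growth factor receptor, read 6.93, 6.94 and 6.90 in Nalm6 and 9.09, 9.27 and 9.12 in the KMT2A-AFF1 line, at least 4.21-fold higher, and CTSG, a granule protease, was at least 4.04-fold higher. CTSG was detected in the T-ALL lines too, at means of 11.09 in Jurkat and 9.38 in Molt4 against 9.10 in the KMT2A-AFF1 line. CEBPA, a myeloid transcription factor, was at least 1.44-fold higher in the KMT2A-AFF1 line. CD33 ran the other way at 1.43, as did lysozyme, LYZ, at least 1.79-fold, with 1.51 for its brightest probe against 0.98. The counts were 4 and 5 without the shCREB2 arrays. MPO, ELANE, AZU1, PRTN3 and CSF3R were at background on all 6 arrays. Of the T-lineage list 10 of 25 were tested and CD1A and CD3D were called, at least 2.64-fold and 1.3-fold higher in the KMT2A-AFF1 line and at background in Nalm6, while CD3E and CD3G stayed at background, and the level of CD3D in Jurkat and Molt4 was 12.82 and 12.56 against 7.47 in the KMT2A-AFF1 line. No erythroid gene was tested. The summed level of the 9 myeloid markers ran from 10.18 to 10.29 in Nalm6 and from 10.01 to 10.05 in the KMT2A-AFF1 line, and that of the 9 T-lineage markers from 10.11 to 10.15 and from 10.16 to 10.20, and their part in the other differences was not tested.

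Among genes of cell death and growth arrest, BCL2 read 7.66, 7.27 and 7.80 in Nalm6 and 9.71, 9.35 and 9.65 in the KMT2A-AFF1 line, 3.98-fold higher, and BID, which relays death receptor signals, differed by -0.44. HRK, a BH3-only inhibitor of BCL2 proteins, read 9.07, 8.05 and 9.02 in Nalm6 and was at background in the KMT2A-AFF1 line, at least 3.12-fold higher in Nalm6. The remaining family members named in the list and tested, MCL1, BCL2L1 and BAX among them, had 1 further call, BCL2L12 at 0.61. Of 15 BCL2 family genes tested, 2 were called higher in Nalm6 and 2 higher in the KMT2A-AFF1 line. The share called was 26.7%, against 33.6% of all genes. CDKN1A, the CDK inhibitor p21, read 12.0048, 12.12 and 12.04 against 10.92, 10.87 and 10.78, 2.29-fold higher in Nalm6 and above 7.36 and 7.44 in Jurkat and Molt4. GADD45A, a growth arrest gene, differed by 1.04.

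In the lists of cytokine and NF-kB signalling, IFNGR2, a chain of the interferon gamma receptor, read 7.35, 7.30 and 7.17 in Nalm6 and 9.53, 9.62 and 9.41 in the KMT2A-AFF1 line, 4.75-fold higher, while its partner IFNGR1 differed by 0.47. The means of IFNGR2 in Jurkat and Molt4 were 9.57 and 9.37. TNF read 7.07, 7.64 and 7.75 against 10.09, 9.65 and 10.49, a log2 difference of -2.59, and was detected on 2 of 3 Nalm6 arrays. TNFAIP3 and NFKBIZ, feedback genes of the same pathway, were called higher in Nalm6, by 1.18 and at least 1.47-fold, and the brightest NFKBIZ probe gave 1.23 against 0.78 for the mean. In all, 6 and 5 of 22 cytokine and JAK-STAT genes and 5 and 2 of 22 NF-kB genes were called higher in Nalm6 and in the KMT2A-AFF1 line. The share called was 50% and 31.8%, against 33.6% of all genes.

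Of the genes of the cyclic-AMP pathway and CREB, 28 were tested, 8 called higher in Nalm6 and 4 higher in the KMT2A-AFF1 line (42.9% called against 33.6% of all genes), the same numbers as without the shCREB2 arrays. ADCY3, an adenylyl cyclase that makes cyclic AMP, read 8.49, 7.59 and 8.40 in Nalm6 and 10.63, 10.65 and 10.65 in the KMT2A-AFF1 line, 5.59-fold higher. PDE4B, a phosphodiesterase that breaks it down, was at background in the KMT2A-AFF1 line and at least 1.58-fold higher in Nalm6, with a log2 difference of 1.98 for its brightest probe against 0.92. PRKAR1A, a regulatory subunit of protein kinase A, differed by 0.89, and PRKAR1B, another, was at least 1.58-fold higher in Nalm6. EGR1, an immediate early gene, read 7.48, 7.63 and 7.43 against 10.02, 9.51 and 9.77, 4.76-fold higher in the KMT2A-AFF1 line, and FOS differed by -0.72. The coactivators CREBBP and EP300 did not pass the test, with differences of 0.07 and 0.06.

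Cell cycle genes moved with the array labelled shCREB2. Of 42 mitosis genes 1 was called higher in Nalm6 and 3 higher in the KMT2A-AFF1 line (9.52% called against 33.6% of all genes), and of 41 replication genes 2 and 4 (14.6% called). The median difference of the mitosis list was 0.00 with Scrambled, -0.86 with shCREB2 and -0.09 with shCREB3, and that of the replication list 0.13, -0.63 and -0.11. Without the shCREB2 arrays the mitosis counts were 8 and 11 and the replication counts 9 and 5. For the brightest probe the mitosis counts, of 39, were 1 and 4 with quantile normalization and 1 and 12 with median scaling, and the replication counts, of 41, were 3 and 4 and 0 and 7. Over all genes the counts without the shCREB2 arrays were 2371 and 2214 of 11953. For the brightest probe of 11797 genes they were 2143 and 2021 with quantile normalization and 1477 and 3027 with median scaling. CDC25B, a phosphatase that opens mitosis, was 2.16-fold higher in the KMT2A-AFF1 line, and GINS2, a subunit of the replicative helicase, differed by -1.12 with Nalm6 levels of 11.03, 10.08 and 10.70. Among the G1 genes CDKN2C, an inhibitor of CDK4 and CDK6, read 7.52, 7.80 and 7.46 in Nalm6 against 9.07, 9.09 and 8.96, 2.72-fold higher in the KMT2A-AFF1 line, whereas CDKN2A was at background in both. In mismatch repair, MSH6 was 2.2-fold higher in the KMT2A-AFF1 line.

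The differences were also grouped by the chromosome of the gene, taken from RefSeq for the current symbol. On 19 of the 22 autosomes the median difference lay between -0.03 and 0.08. On chromosomes 8, 13 and 20 it was -0.25, -0.25 and -0.24, and 42.6%, 43.0% and 39.9% of their 350, 186 and 293 genes tested were called higher in the KMT2A-AFF1 line, against 11.4% to 26.8% on the other autosomes. With each chromosome cut by position into 5 stretches, chromosome 8 had medians from -0.28 to -0.20, chromosome 13 from -0.37 to -0.15 and chromosome 20 from -0.27 to -0.16, so the shift ran along each of them. It was there with each vector, for chromosome 8 at -0.24, -0.24 and -0.23. Set against the mean of Jurkat and Molt4, the medians of these chromosomes were 0.22, 0.28 and 0.13 in the KMT2A-AFF1 line and -0.01, 0.01 and -0.08 in Nalm6. For the brightest probe the differences between the lines were -0.28, -0.28 and -0.21 with quantile normalization and -0.40, -0.42 and -0.39 with median scaling, the latter against -0.13 to -0.03 on the other autosomes.

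Chromosome 7 held a split. Its whole median was -0.03, yet the first 2 of its 5 stretches, counted from the short-arm end, had a median of 0.34 with 102 of 202 genes called higher in Nalm6 and 22 higher in the KMT2A-AFF1 line. The last 3 stretches had -0.16, with 25 and 113 of 301. Against Jurkat and Molt4 the medians were -0.27 and 0.12 in the KMT2A-AFF1 line and 0.04 and -0.02 in Nalm6. Jurkat minus Molt4 had 0.12 and -0.13 on the same stretches. The change of sign did not fall at the border of stretches 2 and 3. From ZNF680 to the end of stretch 2 most called genes were higher in the KMT2A-AFF1 line, with BAZ1B at -0.59 and TBL2 at -0.75. CCT6P1, TPST1 and TYW1B in that part were called higher in Nalm6. That part was picked after its values were seen. The HOXA cluster lies in stretch 1, where the median was 0.48. The 4 called genes of the cluster ran against that median, together with the neighbours SKAP2 and SNX10 at -1.69 and -1.33. So did CENTA1, FSCN1, TWIST1, DFNA5 and JAZF1 elsewhere in the stretch. In the deposited values DFNA5 differed by more than any HOXA gene, at -3.88 against -3.61 for HOXA9. For the brightest probe the order was reversed, with -3.90 for DFNA5 and -4.50 for HOXA9. The exceptions were therefore not confined to the cluster and its nearest neighbours. CBX3 on the near side and HIBADH and TAX1BP1 on the far side went with the stretch, at 0.69, 0.77 and 1.30. These neighbours were chosen after their values were seen. DNA copy number was not analysed here.

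**Figure D5:**
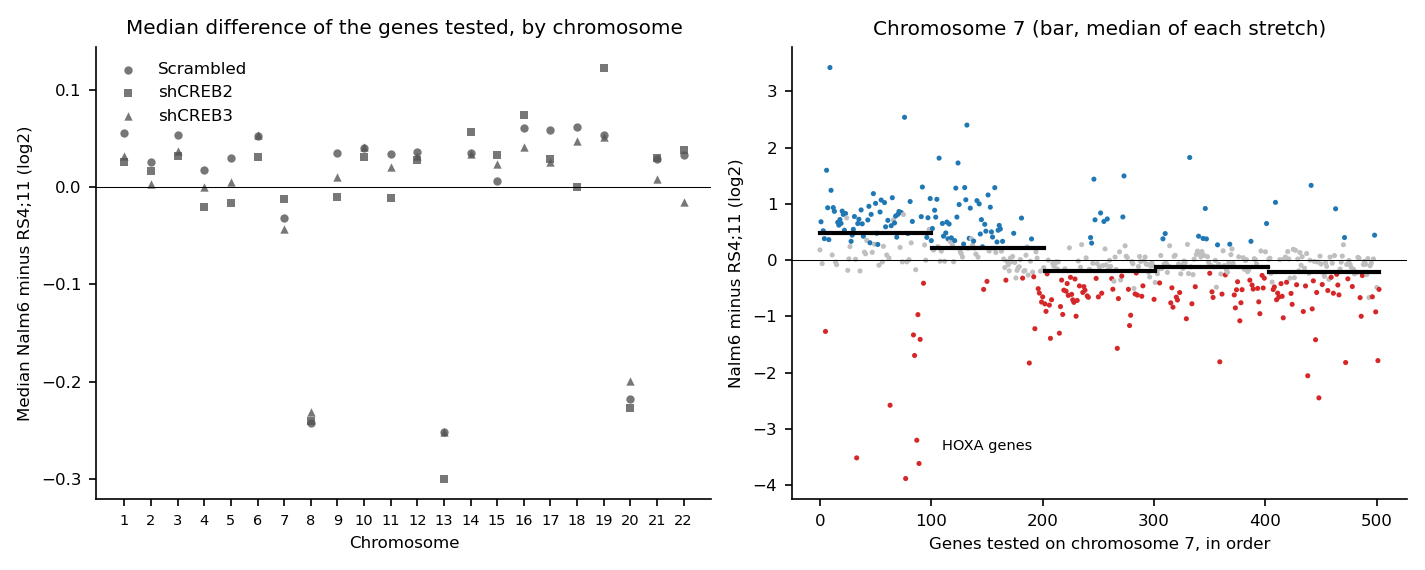
Left, median difference (Nalm6 minus RS4;11, log2) of the genes tested on each autosome, 1 symbol per vector, with chromosomes 8, 13 and 20 between -0.30 and -0.20 and the rest nearer to 0. Right, difference of each of the 503 genes tested on chromosome 7 in their order along it, blue and red for genes called higher in Nalm6 and in RS4;11, with the median of each stretch as a bar.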

How the data were processed

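The authors deposited scanner signals per probe exported from GenomeStudio, a detection p-value per probe and array, and a table of quantile-normalized gene means, which is on a natural log scale although the methods name log2. The deposited natural log values were divided by ln 2 here. Of the signal values 98.1% carried no decimal mark. It was put back from the gene means, within 0.02 on the natural log scale, and 157 genes were left out of the alternatives that use these signals. No background was subtracted in the gene means, and each averages all probes of a symbol, dim ones included. The labels' design text names another BeadChip version than the methods.

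Alternatives were other filters, normalizations, probes and variances, the methods' t-test, no block, and arrays left out. The test was limma 3.58.1 (R 4.3.3, lmFit and eBayes) on the 6 arrays with vector as a block and Benjamini-Hochberg adjustment over 11953 genes, and adjusted p-values in the text are from it. Arrays with the same vector deviated together from their line's mean (r = 0.401, 0.417 and 0.398 for Scrambled, shCREB2 and shCREB3), so the vectors pair the arrays. The number of arrays limits precision. The test was checked on simulated data in which few genes were changed. It recovered 0% of genes changed by 0.5 and 39% of genes changed by 1 on the log2 scale, with 0 false calls. The lines differed in many more genes, and the simulated arrays shared no deviation by vector, unlike the real ones. These shares are therefore not those of the real test. A gene that did not pass the test may still differ. Nothing in the labels says that arrays come from separate cultures.

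Named genes were the 15 largest called differences per direction with the same sign for each vector (unnamed loci left out), the 3 largest called per direction in each of 25 lists, and a fixed set of 23 marker and lineage genes, IGHM of which has no entry. Other genes are named as list members. The genes, lists and tests were chosen with earlier results of these data known. Where older and newer symbols had separate entries, the brighter was used, and 3855 symbols were updated by Entrez ID and 638 by synonym. Python 3.11.15 with pandas 2.3.3 and matplotlib 3.10.9 made the summaries and figures. Results for a few genes and 1 list are not reported here.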

Additional observations from a re-analysis of the deposited data

How the results depend on the processing

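Counts higher in Nalm6 and in RS4;11 were 2010 and 1976 with no replicate block, against 2026 and 1985. They were 1517 and 1307 of the 9696 genes detected on all 6 arrays, 1392 and 1252 of the 7456 genes with 1 probe, and, of 11797 genes with the brightest probe, 2143 and 2021 with quantile normalization and 1477 and 3027 with median scaling. A minimum difference of 1 left 300 and 394. Without 1 replicate the counts ran from 707 to 2371 and from 835 to 2214, lowest without the shCREB3 arrays for Nalm6 and without the Scrambled arrays for the other line. With no block, leaving out the arrays of RS4;11 one at a time gave 1118, 1204 and 1181 higher in Nalm6 and 1259, 1361 and 1313 higher in RS4;11, and over all arrays left out singly the counts ran to 2670 and 2472. Of the called named genes, 67 kept their call under every alternative that tested them. A large part of the called named genes lost it under some alternative, so those calls depend on the processing. None of the called named genes changed sign.

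Genes that were not called changed sign. EBF1 ran from -0.1759 to 0.1559 without 1 replicate and was 0.2117 and 0.0291 without 1 array and no block, and 0.0667 with array weights. VPREB1 was 0.05, 0.0093 and 0.0564 without 1 array and no block. IGLL1 ran from -0.0336 to 0.3754 without 1 replicate and was -0.1248 without 1 array. CREB1 ran from -0.1677 to 0.0955 without 1 replicate, was 0.0635 and 0.1177 without 1 array, and 0.0328 and 0.0338 for its brightest probe, quantile-normalized and with normexp. The cause was not tested. Leaving out single arrays and array weights were added after the data were seen. Precision is limited by 3 arrays per line, and signal near background by the lack of background subtraction.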

Other observations

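Metabolic genes were called in both directions. In glycolysis 7 of 25 genes tested were called higher in Nalm6 and 7 higher in the KMT2A-AFF1 line (median -0.08), 56.0% called against 33.6% of all genes. SLC2A5, a fructose transporter, read 9.43, 9.33 and 9.47 in Nalm6 and 7.23, 7.26 and 7.26 in the KMT2A-AFF1 line, 4.48-fold higher with no overlap, whereas HK1, the hexokinase, was 2.4-fold higher in the KMT2A-AFF1 line and HK2 differed by 0.49. PFKFB3, which makes an activator of phosphofructokinase, and LDHA differed by -1.01 and -0.60. GLDC, the glycine decarboxylase, read 6.66, 6.86 and 6.80 in Nalm6, at background, and 9.60, 9.78 and 9.78 in the KMT2A-AFF1 line, at least 6.2-fold higher. It was detected in Jurkat and Molt4 at means of 8.35 and 7.87. Of the 14 serine and folate genes tested, GLDC and PSPH, at 0.32, were called (14.3% called against 33.6% of all genes). Without the shCREB2 arrays 6 were higher in Nalm6 and 1 higher in the KMT2A-AFF1 line.

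Interferon-stimulated genes were called in both directions, 9 of 37 higher in Nalm6 and 10 higher in the KMT2A-AFF1 line (median -0.01), 51.4% called against 33.6% of all genes. STAT2, IFIT3 and TRIM22 differed by 0.95, 0.95 and 0.86, and BST2, MX2 and ISG20 by -1.08, -0.98 and -0.87. MX1 and MX2, relatives on chromosome 21, went opposite ways, with MX1 at 0.56. Without the shCREB2 arrays 11 and 10 were called.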
